A study of Mus musculus with 4 samples.

Results

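Matrix metalloproteinases (Mmps), Adamts proteases and Timps build and remodel the extracellular matrix, and their transcripts were measured here in the newborn mouse ureter against the newborn body as a whole. The members are all probe sets annotated to exactly 1 gene symbol that is Mmp, Adamts or Timp directly followed by a number. This gave 70 of the 45101 probe sets on the arrays, for 37 genes: 18 Mmp, 15 Adamts and 4 Timp genes. The 3 ureter samples were whole ureters of male FVB/N mice at postnatal day 1 (Theiler stage 27) that carried a transgene called SMGA/EGFP (smooth muscle gamma-actin and green fluorescent protein), freed from kidney and bladder and not pooled. The reference was 1 pool of whole FVB/N mice of the same age, of both sexes and without the transgene. Tissue, transgene, sex and pooling therefore change together in every difference given here. All samples went through 2 rounds of amplification. Whether the ureters are from different mice is not stated, so the p-values reflect the scatter among these arrays, possibly technical, and the single reference array was assumed to vary like the ureters.

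Mmps are zinc-dependent enzymes that are made as inactive precursors and cleave collagens, proteoglycans and cell surface proteins. Adamts enzymes, which carry thrombospondin repeats, cut large proteoglycans such as versican and aggrecan, the end pieces of procollagens and other matrix proteins. Timps bind the active site of Mmps, and Timp3 also inhibits several Adamts enzymes. In a developing tube of epithelium, stroma and smooth muscle such as the ureter, such enzymes are known to clear the provisional matrix as the wall matures. Mice without Adamts1 are known for an obstruction where the renal pelvis joins the ureter.

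The values are quantile-normalized intensities, on a linear scale, and each difference is the log2 ureter mean minus the log2 reference value, given ± the standard error (SE) from limma fitted over all probe sets. A gene is represented by its brightest probe set unless another is named. An array's background level is its brightest probe set for a bacterial transcript that was not spiked in. That level was 94.2, 188 and 134 in ureter replicates 1, 2 and 3 and 127 in the reference on the normalized scale. Over the whole series, 725 probe sets were higher and 942 lower in the ureters at an adjusted p under 0.05, against 444 higher and 882 lower with the scaling as deposited. The label of the ureters was borne by its marker genes: all 5 smooth muscle, 4 of 5 urothelial and all 4 ureteric stroma markers passed as higher, and all 14 were above background in every ureter. Kidney markers summed to 700, 5593 and 3771 in ureter replicates 1, 2 and 3, against 4065 in the reference.

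In the ureters, the secreted stromelysin gene Mmp11 and the proteoglycanase gene Adamts1 rose, while the collagenase gene Mmp13 and the gelatinase gene Mmp9 fell. Of the 37 genes, 27 passed the filter on dim probe sets, and 2 were higher and 2 lower than the reference. Over all 13721 genes tested, 2.94% were called higher and 4.77% lower, and 7.71% in either direction, beside which 4 calls among 27 members are to be read. A second probe set of Mmp23 and one of Adamts6 also passed as higher, which makes 4 higher and 2 lower among 48 tested probe sets, where 2.68% and 3.49% of all tested probe sets were called, 6.17% together. The median difference of the tested members was 0.62, against 0.10 for all tested genes. Of the 27 differences 21 were positive, beside 7567 of all 13721 genes tested. With the scaling as deposited the medians were 0.47 and -0.05, with 18 positive, and the signs of Adamts15, Adamts7 and Timp1 turned. With arrays centred on their median they were 1.20 and 0.68. All 3 ureters lay above the reference for 19 of the 27 genes and below it for 5, where 39.9% and 30.7% of all tested genes did so. Counted by probe set, 33 of 48 lay above and 8 below, where 39.1% and 29.3% of all tested did so. As deposited these counts were 16 and 6 of 27, beside 32.2% and 37.5% of all genes.

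**Figure D1:**
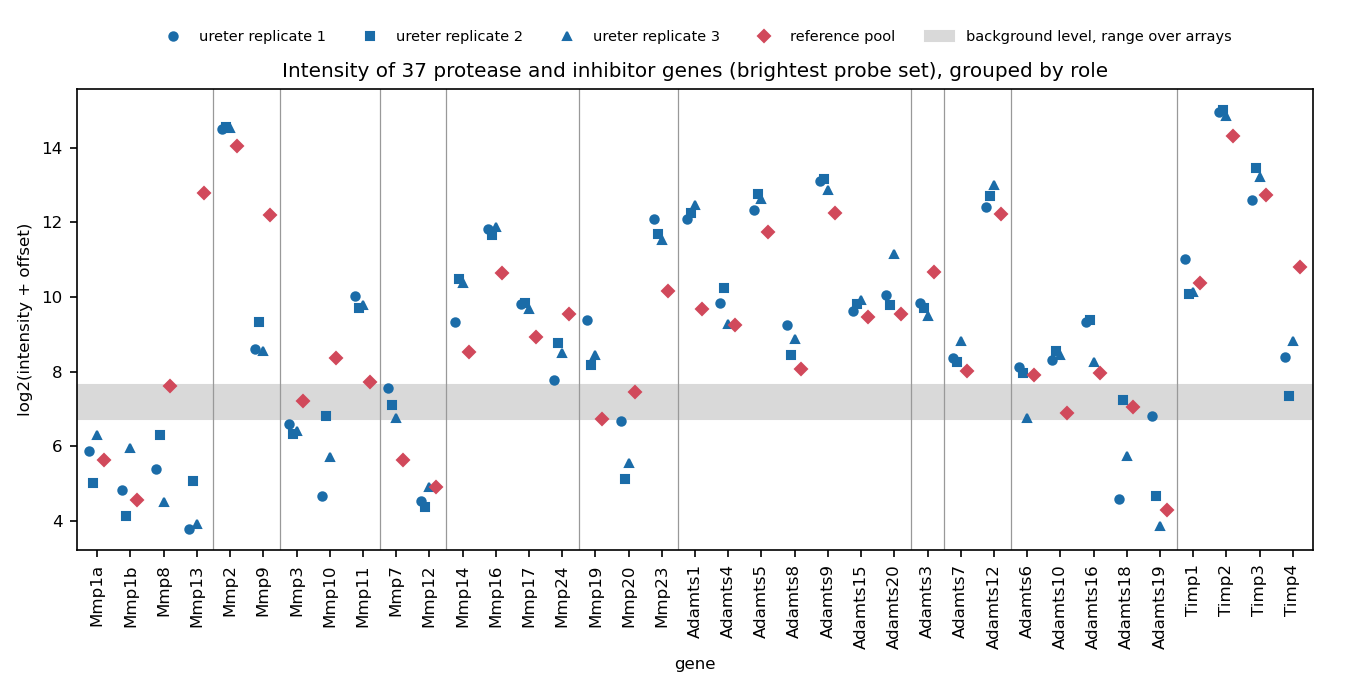
Intensity of each of the 37 genes as log2(intensity + offset), at the brightest probe set, with 1 point per array (blue, 3 ureters; red, reference pool). Genes run by role from collagenases to Timps, thin lines divide the roles, and the grey band is the range of the background level over the 4 arrays. Mmp13 and Mmp9 show the reference far above the ureters, and Adamts1 and Mmp11 show the reverse.

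Promoter sequence is shown first because most genes that lay at background in every ureter are neighbours in a cluster on a single chromosome. Whether promoter motifs have a part in their levels was not tested. The first 4 stretches are from that cluster on chromosome 9, and the last 2 are from the genes that passed as higher. Each is the 150 bases before the annotated start, 5′ to 3′, from RefSeq (build GRCm38.p6), with capitals for the letters of 3 motifs on either strand. The motif TGANTCA, where N is any base, includes the site bound by AP-1, so a match need not be that site. The motif TATAAA is the core of the TATA box and the motif GGGCGG is the GC box.
Mmp13: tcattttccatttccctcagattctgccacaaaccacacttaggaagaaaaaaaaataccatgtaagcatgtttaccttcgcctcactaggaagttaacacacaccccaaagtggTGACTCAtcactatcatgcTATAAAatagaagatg
Mmp3: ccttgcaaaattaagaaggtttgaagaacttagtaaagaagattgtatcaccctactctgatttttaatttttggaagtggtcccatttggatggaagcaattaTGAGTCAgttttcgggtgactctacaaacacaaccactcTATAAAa
Mmp10: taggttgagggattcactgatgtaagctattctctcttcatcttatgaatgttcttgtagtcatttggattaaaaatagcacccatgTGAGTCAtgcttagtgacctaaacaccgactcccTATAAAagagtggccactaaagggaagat
Mmp7: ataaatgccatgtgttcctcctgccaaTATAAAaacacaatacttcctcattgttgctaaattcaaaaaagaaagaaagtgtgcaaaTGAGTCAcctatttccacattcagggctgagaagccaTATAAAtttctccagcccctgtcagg
Mmp11: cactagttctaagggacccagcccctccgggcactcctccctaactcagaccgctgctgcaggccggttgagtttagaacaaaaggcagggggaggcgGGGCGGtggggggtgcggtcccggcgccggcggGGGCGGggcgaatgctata
Adamts1: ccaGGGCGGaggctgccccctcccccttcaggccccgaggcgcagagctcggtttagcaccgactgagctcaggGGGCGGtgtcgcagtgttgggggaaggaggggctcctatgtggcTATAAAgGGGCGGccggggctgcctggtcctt
These stretches lie at chr9:7272364-7272513 (plus strand) for Mmp13, chr9:7445672-7445821 (plus strand) for Mmp3, chr9:7502192-7502341 (plus strand) for Mmp10 and chr9:7691940-7692089 (plus strand) for Mmp7. Those of the other two are chr10:75932503-75932652 (minus strand) for Mmp11 and chr16:85803114-85803263 (minus strand) for Adamts1.

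Of the 37 genes, 23 had an entry in the promoter table, and 250 bases before the first listed start of each were searched on both strands. TGANTCA was present in 7 of the 9 cluster genes (Mmp1a, Mmp1b, Mmp3, Mmp7, Mmp10, Mmp13 and Mmp20) and in 0 of the 14 other members, against 6.87% of 27025 promoters. TATAAA was present in the same 7 cluster genes and, of the 14 others, in Adamts1, against 13.0% of all promoters. Mmp7, the cluster gene not at background in every ureter, had TGANTCA and TATAAA. Mmp8 and Mmp12, at background in every ureter, had neither motif, and their stretches are not printed. GGGCGG was present in 0 of the 9 cluster genes and in 11 of the 14 others, Adamts1 with 3 matches among them, against 32.9% of all promoters. No match of one motif overlapped a match of another in the printed stretches. The members were chosen by gene symbol, not by promoter sequence. The 9 cluster genes are neighbours within the Mmp family, so their matches cannot be counted as independent of each other. Whether the motifs are enriched over all promoters was not tested. A match is a string of letters, not a measured binding site.

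The collagenases, which cut the triple helix of fibrillar collagen, were at background in the ureters. Mmp13, the collagenase of growth plate cartilage and bone, read 1.66, 21.6 and 3.01 in ureter replicates 1, 2 and 3, against 7066 in the reference. All 3 ureters were thus below background where the pool was bright. The ureter level of Mmp13 was at least 48.5-fold lower (adjusted p = 0.0130), a bound that sets each ureter at its background level. The measured means on the log2 scale differed by -8.52 ± 1.00, and Mmp13 passed the filter only through the reference. With an offset of 1 before the logarithm it missed the threshold (-10.15, adjusted p = 0.0551). Mmp8, the collagenase of neutrophils, read 29.6, 67.1 and 10.6 in the ureters, against 183 in the reference, and was too dim to be tested. Mmp1a and Mmp1b, a closely related pair whose probe sets may share targets, were at or below background on all arrays.

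Both gelatinase genes, whose enzymes digest denatured collagen and basement membrane collagen, were above background on all 4 arrays, and Mmp9 alone passed the test. Mmp9, the gelatinase of osteoclasts and leukocytes, read 378, 635 and 362 in the ureters, against 4698 in the reference. No ureter came near the pool, and the difference was -3.37 ± 0.49, 10.3-fold lower (adjusted p = 0.0199). Its second probe set read 307, 456 and 195, against 2062 in the reference, and differed by -2.72 ± 0.58 and narrowly missed the threshold. Without ureter replicate 3 Mmp9 differed by -3.15 (adjusted p = 0.0875). Mmp2, the gelatinase of stromal cells, read 23122, 23933 and 23691 in the ureters, against 16937 in the reference. The ureters lay close together above the pool, but the difference of 0.48 ± 0.18 did not pass (adjusted p = 0.184), and nor did the second Mmp2 probe set (0.65 ± 0.21, adjusted p = 0.136).

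Markers of cell types known to make these enzymes were read beside them. The 7 neutrophil markers summed to 1472, 2154 and 4135 in the ureters, against 46232 in the reference; 5 of 7 were lower and none was at background in every ureter. The 6 cartilage markers summed to 4168 to 5451 in the ureters, against 30947, with 4 lower and Matn1 and Matn3 at background in every ureter. Most of that ureter sum was Col9a1, which read 3788, 3732 and 4693, against 13895 in the reference. The 5 measured bone and osteoclast markers summed to 3769 to 4836 in the ureters, against 29988, with 2 lower and none at background in every ureter. Most of this ureter sum was Ctsk, which read 2814, 2719 and 2583, against 13940 in the reference. The 5 macrophage markers summed to 21684 to 27220 in the ureters, against 42951, and of these Csf1r alone passed as lower. C1qa differed by -0.17 ± 0.39 and Mrc1 by 0.12 ± 0.28. The part of these cells in the Mmp13 and Mmp9 differences was not tested, and in such bulk samples fewer cells of a type and less RNA per cell cannot be told apart.

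Among the stromelysins, Mmp11 alone was above background in the ureters. Mmp11, which is activated by furin before secretion and is known from stroma, read 1029, 829 and 871 in the ureters, against 200 in the reference. The 3 ureters agreed closely and stood 4.34-fold above the pool (2.12 ± 0.42, adjusted p = 0.0427). This call was close to the threshold: it was lost with the scaling as deposited (1.54, adjusted p = 0.129), with median-centred arrays (0.0585), without the filter on dim probe sets (0.0779) and with no intensity trend in the fit (0.0575). It was also lost without ureter replicate 1 (0.0766) or 3 (0.173). Mmp3 read 84.7, 68.0 and 73.4 in the ureters, against 136 in the reference. Mmp10 read 13.3, 101 and 40.3 in the ureters, against 318. Both were at background in all ureters and above it in the pool, and neither was bright enough to be tested.

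The small matrilysin Mmp7, an epithelial enzyme, showed the reverse order at the edge of detection. It read 177, 127 and 96.8 in the ureters, against 37.8 in the reference, with 1 of 3 ureters above background and the pool below it. Mmp12, the macrophage elastase, was at background on all arrays, reading 11.2, 8.46 and 17.8 in the ureters and 18.2 in the reference. Mmp20, the enamel protease of teeth, read 90.0, 23.0 and 34.7 in the ureters, against 164 in the reference. Mmp7, Mmp12 and Mmp20 were too dim to be tested.

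The genes at background have a shared position. Mmp13, Mmp12, Mmp1b, Mmp3, Mmp1a, Mmp10, Mmp8, Mmp20 and Mmp7 lie in that order in 1 cluster on chromosome 9 of the RefSeq annotation. Mmp27, which was not analysed here, lies between Mmp8 and Mmp20. Of the 9 cluster genes analysed 8 were at background in every ureter, Mmp7 being the exception, and 3 were at background in the reference as well. The pool was above background for 5, and all 3 ureters lay below it for 6, Mmp12 among them with all arrays at background. Of all tested genes 30.7% had all 3 ureters below the pool, but 8 of these 9 genes were not tested. Of the 37 members, 9 were at background in every ureter, so Adamts18 was the sole one outside the cluster. Over the whole series 3264 of 18193 genes were at background in every ureter. Tested without the filter, 0 of the 10 genes left out by it passed in limma (lowest adjusted p = 0.246), and 1 had an unadjusted p under 0.05. The dimness of these probe sets limits what the arrays can show: a level below background is not a level of 0.

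**Figure D2:**
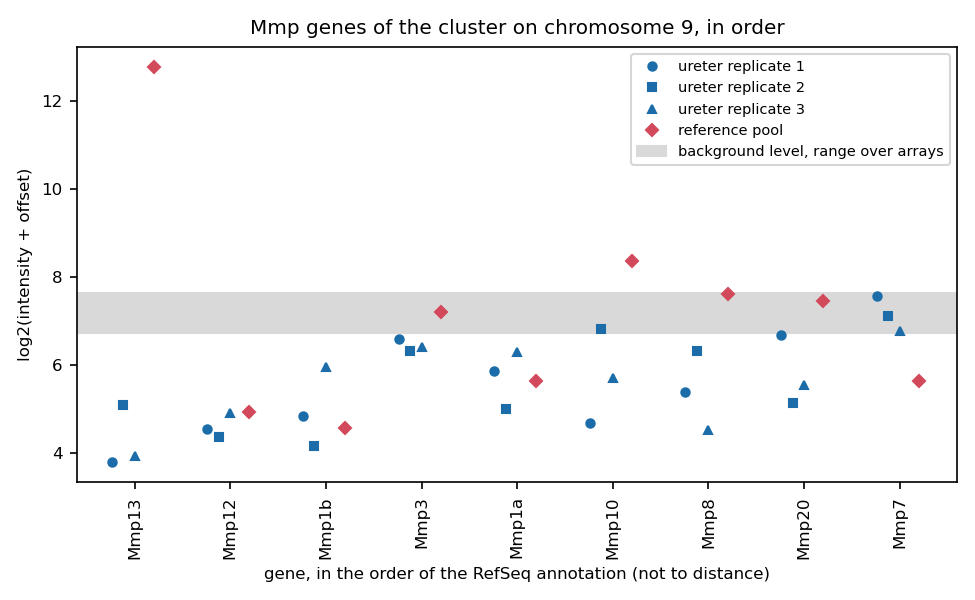
The 9 measured Mmp genes of the chromosome 9 cluster in the order of the annotation, as log2(intensity + offset), with 1 point per array (blue, 3 ureters; red, reference pool) and the range of the background level in grey. Mmp13 stands out with 7066 in the reference and 1.66 to 21.6 in the ureters, and the ureters of all genes but Mmp7 lie at or below background.

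The membrane-type Mmps act at the cell surface, and 4 of them were measured, none past the threshold. Mmp16, a transmembrane enzyme, read 3645, 3240 and 3762 in the ureters, against 1594 in the reference. The ureters were all above the pool, by 1.15 ± 0.33 (adjusted p = 0.105). Its other tested probe sets, dimmer ones, gave 2.02 and -0.73, so the direction is not settled over the gene. Mmp14, which activates Mmp2 in a complex with Timp2, read 635, 1430 and 1318 in the ureters, against 358 in the reference (1.54 ± 0.57, adjusted p = 0.174). Its second tested probe set pointed the same way (0.66). Mmp17, a lipid-anchored member, read 889, 903 and 808 in the ureters, against 477 in the reference (0.84 ± 0.40, adjusted p = 0.268). Mmp24, known from the nervous system, read 208, 427 and 351 in the ureters, against 735 in the reference (-1.19 ± 0.57, adjusted p = 0.268), and was the member of the group with the pool above all ureters.

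Mmp23, an unusual member that lacks the hemopexin domain of most Mmps, was well above background on all arrays. Its brightest probe set read 4343, 3318 and 2942 in the ureters, against 1129 in the reference, and missed the threshold (1.62 ± 0.38, adjusted p = 0.0644). Its second read 3620, 2947 and 2518 in the ureters, against 481 in the reference, and passed as 6.10-fold higher (2.61 ± 0.39, adjusted p = 0.0213). The ureters lay above the pool at both probe sets without overlap. With both averaged Mmp23 passed (2.11, adjusted p = 0.0215), and the brightest alone passed when the lowest 60% of probe sets were left out (adjusted p = 0.0483). Without ureter replicate 3 the second probe set lost its call (2.67, adjusted p = 0.0889). Mmp19, a broad-range secreted enzyme, read 659, 280 and 336 in the ureters, against 93.4 in the reference, which was at background. It was at least 2.94-fold higher by its bound but did not pass (adjusted p = 0.140). Its second probe set, too dim to be tested, read 142, 40.5 and 128 in the ureters, against 119 in the reference (-0.33). Averaged over both, the Mmp19 difference was 0.81 (adjusted p = 0.527). Mmp19, Adamts10 and the second Adamts6 probe set had a reference at background, so their values rest on the ureters. They passed the filter on dim probe sets only through the ureters.

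**Figure D3:**
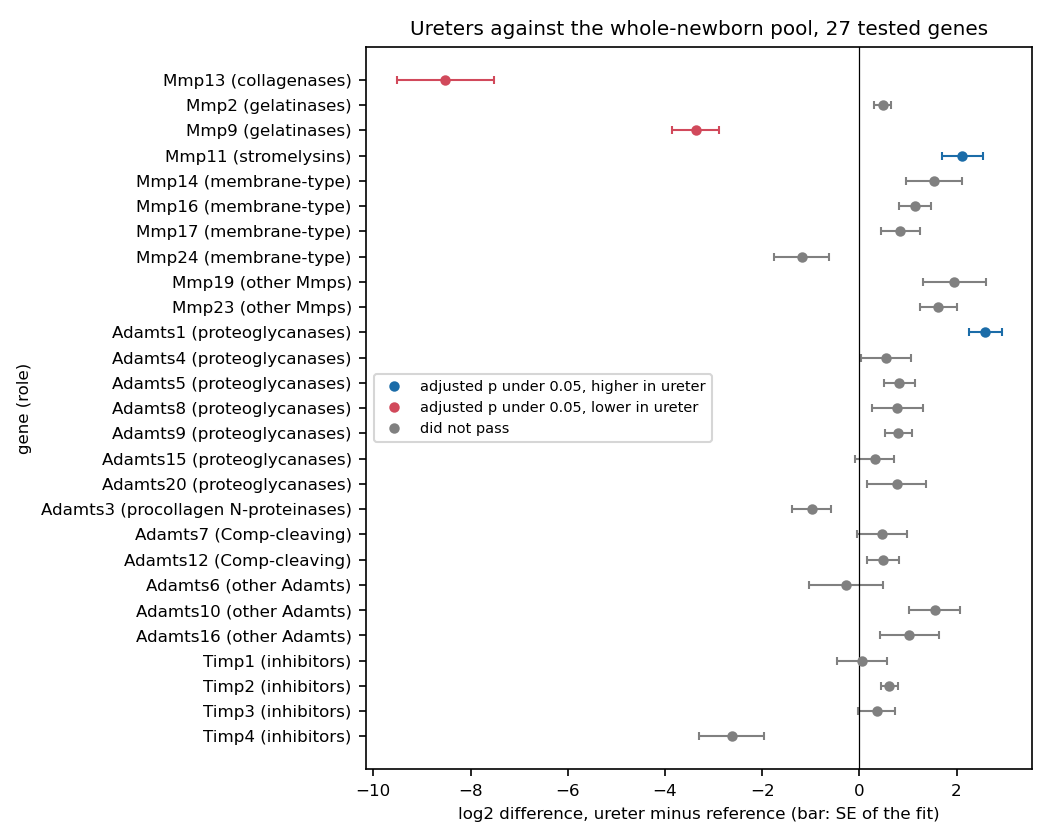
Log2 difference, ureter minus reference, for the 27 tested genes at their brightest probe set, ordered by role, with bars for the SE of the limma fit (3 ureter arrays, 1 reference array). Blue marks genes past the threshold as higher in the ureter (Mmp11, Adamts1), red those past it as lower (Mmp13, Mmp9) and grey the 23 that did not pass.

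The proteoglycanases of the Adamts family were all above background in every ureter, and 1 of 7 passed as higher. Adamts1, which cleaves versican and aggrecan, read 4376, 4850 and 5668 in the ureters, against 811 in the reference. The lowest ureter was far above the pool, and the gene was 6.01-fold higher (2.59 ± 0.34, adjusted p = 0.0160). Without ureter replicate 3 it missed the threshold (2.44, adjusted p = 0.0906), and under the other alternatives it passed. Its neighbour on chromosome 16, Adamts5, also a versican and aggrecan protease, read 5139, 6924 and 6361 in the ureters, against 3443 in the reference. Adamts5 did not pass (0.82 ± 0.32, adjusted p = 0.187), and its 3 tested probe sets gave 0.60 to 0.91.

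The other proteoglycanase genes differed less from the pool. Adamts9, a versican protease, read 8833, 9140 and 7522 in the ureters, against 4867 in the reference (0.80 ± 0.28, adjusted p = 0.151). A dimmer Adamts9 probe set lay the other way (-1.43 ± 0.78, adjusted p = 0.327). Adamts20, a close relative of Adamts9, read 1046, 871 and 2269 in the ureters, against 742 in the reference, with replicate 3 well above the other two (0.77 ± 0.61), and did not pass. Adamts4, known as an aggrecan protease, read 914, 1198 and 608 in the ureters, against 594 in the reference (0.55 ± 0.51). The adjacent pair Adamts8 and Adamts15 on chromosome 9, apart from the Mmp cluster, differed by 0.78 ± 0.52 and 0.32 ± 0.40. All 7 differences were positive at the brightest probe sets, beside 7567 of all 13721 genes tested. The median of the 7 was 0.78, against 0.10 for all tested genes. With the scaling as deposited the Adamts15 difference was not positive.

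Among the remaining Adamts genes no brightest probe set passed. Adamts3, which removes the amino end piece of procollagen and acts in the processing of the lymphatic growth factor Vegfc, read 908, 829 and 712 in the ureters, against 1613 in the reference (-0.98 ± 0.40, adjusted p = 0.207). It had the pool above all 3 ureters. Adamts12, which cleaves the cartilage protein Comp, read 5462, 6627 and 8178 in the ureters, against 4778 in the reference (0.48 ± 0.33, adjusted p = 0.440). Its relative Adamts7 read 317, 296 and 442 in the ureters, against 247 in the reference (0.47 ± 0.52). Adamts10, an enzyme of fibrillin microfibrils, read 309, 361 and 335 in the ureters, against 106 in the reference, at background. It was at least 2.49-fold higher by its bound and did not pass (adjusted p = 0.143). Adamts16 read 628, 663 and 296 in the ureters, against 237 in the reference (1.03 ± 0.61, adjusted p = 0.364).

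Adamts6, a relative of Adamts10, had probe sets that disagreed. The one with the higher mean over both groups read 269, 238 and 96.6 in the ureters, against 227 in the reference, with no separation (-0.28 ± 0.76, adjusted p = 0.864; 0.14 without replicate 3). The other read 990, 348 and 703 in the ureters, against 51.4 in the reference, which was at background. This second probe set passed the filter on dim probe sets only through the ureters. It was called higher by 3.32 ± 0.68 (adjusted p = 0.0459), or at least 4.58-fold by its bound. That call was lost as deposited (0.0714), with an offset of 50 (0.0525), without the filter (0.0875), with no intensity trend (0.0777) and without ureter replicate 1 (0.0670) or 3 (0.167). Averaged over both, the Adamts6 difference was 1.52, short of the threshold (adjusted p = 0.160). Adamts18 was at background on all arrays, and Adamts19 was above it in ureter replicate 1 alone. The listed genes Adamts2, Adamts13, Adamts14, Adamts17, Mmp15, Mmp21, Mmp25, Mmp27 and Mmp28 were not analysed here.

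Of the inhibitors, none of the 4 Timp genes passed. Timp2, which both inhibits Mmps and takes part in the activation of Mmp2, read 31605, 32965 and 29643 in the ureters, against 20346 in the reference. The ureters lay within a narrow range above the pool, by 0.62 ± 0.17 or 1.54-fold (adjusted p = 0.0952). All 6 Timp2 probe sets had every ureter above the pool, with differences of 0.38 to 1.89, and none passed. Timp3, the matrix-bound inhibitor of Mmps and Adamts enzymes, read 6223, 11157 and 9503 in the ureters, against 6804 in the reference. Replicate 1 lay below the pool and the other two above it (0.36 ± 0.38, adjusted p = 0.628).

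Timp1, an inducible secreted inhibitor, read 2072, 1079 and 1112 in the ureters, against 1312 in the reference. Replicate 1 lay above the pool and the other two below it (0.05 ± 0.51, adjusted p = 0.969), and without replicate 1 the difference was -0.25. Timp4, known from heart, brain and fat, read 326, 151 and 438 in the ureters, against 1789 in the reference. All ureters were below the pool, with replicate 2 at background, but the difference of -2.63 ± 0.66 did not pass (adjusted p = 0.0751). It passed without ureter replicate 2 (-2.25, adjusted p = 0.0454). Its second probe set differed by -0.53 ± 0.79. In the RefSeq annotation Timp1, Timp3 and Timp4 lie within the spans of the synapsin genes Syn1, Syn3 and Syn2 in that order.

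**Figure D4:**
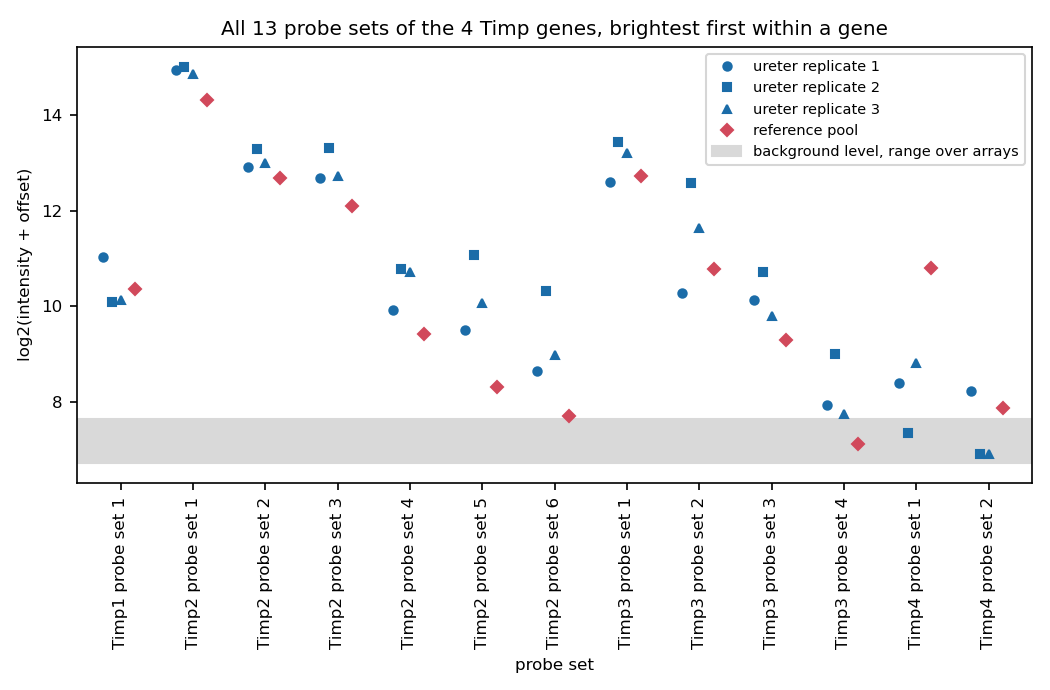
All 13 Timp probe sets as log2(intensity + offset), 1 point per array (blue, 3 ureters; red, reference pool), brightest first within a gene, with the range of the background level in grey. Ureter replicate 2 is the highest ureter at all 10 probe sets of Timp2 and Timp3, whereas Timp1 is highest in replicate 1.

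The ureters differed among themselves in a pattern that these probe sets show. Replicate 2 was the highest ureter at 27 of the 48 tested member probe sets (56.2%), against 32.5% of all 27022. By gene, at the brightest probe set, replicate 2 was the highest at 13 of 27 (48.1%), and the share over all genes was not computed. It was the highest at all 6 of Timp2 and all 4 of Timp3, at 1.04 to 4.97 times the value of replicate 1. These 10 are among the 27 probe sets, and probe sets of the same gene are not independent of each other. A Timp3 probe set read 1233, 6126 and 3182 in the ureters, against 1758 in the reference, and one of Mmp16 read 333, 1972 and 601, against 173. The ratio of 3′ to 5′ signal of the beta-actin control, a measure of how complete the labelled RNA was, was 4.89, 2.88 and 3.56 in the ureters and 3.27 in the reference. The same ratio of the Gapdh control was 16.6, 21.6 and 21.0 in the ureters and 19.8 in the reference. Skeletal muscle markers summed to 2715, 10316 and 3208 in the ureters, against 221484. Among the ureters replicate 2 thus had the lowest actin ratio but the highest Gapdh ratio, and the highest sums of skeletal muscle and kidney markers. Of these markers, Ckm, Myog, Slc34a1 and Nphs1 were not highest in replicate 2. The part of these ratios and markers in the pattern was not tested. The median standard deviation between ureters was 0.42 on the log2 scale for the member probe sets and 0.36 for all tested. For the 27 tested member genes at their brightest probe sets it was 0.30. Several probe sets were tested for 13 member genes, of which 3 had differences on both sides of 0 (Adamts6, Adamts9 and Mmp16) and 0 had calls in opposite directions.

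Partners of these proteases were read from a list of 44 activators, cofactors, receptors and other inhibitors, of which 39 were tested. Of these 39, 2 were higher and 5 lower, beside the 2.94% and 4.77% of all genes, and the median was 0.12. Reck, a membrane-anchored inhibitor of Mmps, read 9999, 12762 and 10485 in the ureters, against 4222 in the reference, and was higher by 1.38 ± 0.28 (adjusted p = 0.0422). Adam10, a cell surface sheddase, read 33163, 33128 and 33478 in the ureters, against 17191 in the reference, and was higher by 0.95 ± 0.17 (adjusted p = 0.0304). Both calls were lost without ureter replicate 3 (adjusted p = 0.173 for Reck and 0.153 for Adam10), without the filter (0.0629 and 0.0761) and with no intensity trend (0.124 and 0.196). Reck also lost its call without replicate 2 (0.0524), and Adam10 as deposited (0.0519) and averaged over its probe sets (0.146).

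Of the 5 partners that fell, several are known from blood plasma or bone. Plg, the plasma precursor of plasmin, was at background in the ureters and passed the filter only through the reference. Its measured difference was -8.79 ± 0.78 (adjusted p = 0.00657), a fall of at least 191-fold by its bound. The plasma protease inhibitors Pzp (-7.34 ± 0.95, adjusted p = 0.0156) and A2m (-5.17 ± 1.01, adjusted p = 0.0399) were lower too. Both likewise passed the filter only through the reference. Ctsk, the collagen-cutting cathepsin of osteoclasts, was lower by -2.36 ± 0.30 (adjusted p = 0.0155), and Pcolce2, which enhances procollagen processing, by -3.37 ± 0.69 (adjusted p = 0.0446). A2m lost its call without ureter replicate 3 (0.0574), with an offset of 1 (0.0536), without the filter (0.0753) and with no trend (0.0804), and Pcolce2 under the same alternatives (0.123, 0.0518, 0.0820 and 0.0825). Ctsk lost its call with median-centred arrays (-1.54, adjusted p = 0.186) and without ureter replicate 3 (0.0830). The 4 liver markers summed to 169 to 1249 in the ureters, against 233594 in the reference, with Fgb, Ahsg and Apoa1 at background in every ureter, and their part in the plasma gene differences was not tested. Furin, the activator of several Mmps, read 821, 1028 and 1081 in the ureters, against 862 in the reference (0.17 ± 0.41), and Plat (1.15 ± 0.36, adjusted p = 0.125) did not pass.

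Of 22 tested matrix substrates 2 were higher and 5 lower, beside 2.94% and 4.77% of all genes, and their median was -0.31 against 0.10 for all genes. The versican gene Vcan, the main substrate of the proteoglycanases in soft tissue, read 24110, 26767 and 27025 in the ureters, against 17590 in the reference, and did not pass (0.56 ± 0.19, adjusted p = 0.141). The 5 that fell belong to cartilage or brain matrix. Comp, the substrate of Adamts7 and Adamts12, was lower by -4.57 ± 0.44 (adjusted p = 0.00840), and the cartilage genes Matn1 and Col2a1 and the brain proteoglycan genes Ncan and Bcan were the others. Matn1, Ncan and Bcan were at background in every ureter, and Col2a1 was above it in 1 of 3 ureters. Matn1, Ncan, Bcan and Col2a1 passed the filter only through the reference. The pair that rose were the small proteoglycan gene Dcn (1.36 ± 0.18, adjusted p = 0.0156) and the microfibril gene Fbn2 (1.03 ± 0.15, adjusted p = 0.0209). Without ureter replicate 3, Dcn (0.0870), Fbn2 (0.102), Matn1 (0.0572) and Bcan (0.0734) did not pass, whereas Comp, Ncan and Col2a1 did. Without an intensity trend Dcn (0.116), Fbn2 (0.177), Bcan (0.0609) and Col2a1 (0.0979) were lost, and without the filter Fbn2 (0.0628), Bcan (0.0596) and Col2a1 (0.0875). With an offset of 1 Bcan (0.0665) and Col2a1 (0.0614) were lost. Averaged over their probe sets Fbn2 (0.168) and Bcan (0.0618) did not pass, and Dcn averaged over all its probe sets differed by 0.43 (adjusted p = 0.441). Col2a1 lost its call without replicate 1 (0.0572) or 2 (0.0531).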

How the data were processed

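Expression was measured on Affymetrix MOE430 arrays, 1 array per sample. The files hold the authors' linear intensities, a value per probe set, computed in GCOS per the submitters' processing notes, which give no version; every array had a mean of 1500.01 once the top and bottom 2% of values were trimmed; the background subtraction is not given here. From these intensities the arrays were quantile normalized and transformed to log2(intensity + 12.23), with the 10th percentile of intensities as offset, so that folds of dim genes are understated. After 64 control probe sets, the dimmest 40%, ranked by the average of both group means, were left out, and 27022 were tested with limma (version 3.58.1 in R 4.3.3; lmFit, eBayes with an intensity trend, two-sided, Benjamini-Hochberg over all tested, threshold 0.05), whose 2 residual degrees of freedom come from the ureters. The fit was tested on simulated data in which the reference varied like the ureters, so that assumption was not checked. The number of arrays limits the precision.

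Gene names are those of the platform annotation: 34945 had 1 symbol, 932 several and 9160 none. "At background" means at or below the brightest of 27 bacterial probe sets in the deposited intensities. "At least" folds set each array of the dimmer group at the higher of that level and its own value. Members, lists and tests were chosen with earlier results of these data known. Values are printed for each member gene with a probe set past the threshold, each Timp and the brightest member of each role, and for most other members. Alternatives were the scaling, offset, filter, trend, averaging of probe sets and each ureter left out.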

Additional observations from a re-analysis of the deposited data

How the results depend on the processing

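The main counts were 1667 probe sets called (725 higher, 942 lower), 4 member probe sets higher and 2 lower, 2 member genes higher and 2 lower, and 2 partner genes higher and 5 lower. With the scaling as deposited, 444 probe sets, 2 member probe sets, 1 member gene and 1 partner gene were called higher. With arrays centred on their median, 1 member gene was higher. An offset of 1 left 1 member probe set, 1 member gene and 3 partner genes lower. Without the filter, 1075 probe sets were called (401 higher), with 2 member probe sets, 1 member gene and 0 partner genes higher and 3 partner genes lower; more probe sets share the adjustment there. With the lowest 60% left out, 1 member gene was lower, as Mmp13 was not tested there. Without an intensity trend, 904 probe sets were called (269 higher), with 2 member probe sets, 1 member gene and 0 partner genes higher and 3 partner genes lower. Averaging the probe sets of a gene left 1 partner gene higher. Where no reason is given, the cause was not tested.

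Leaving out 1 ureter gave 317 to 2135 probe sets called (48 to 928 higher, 269 to 1207 lower), 0 to 4 member probe sets higher and 1 to 4 lower, 0 to 2 member genes higher and 1 to 3 lower, and 0 to 2 partner genes higher and 2 to 7 lower. The lowest of these counts came without replicate 3, which left Mmp13 as the sole member gene called. No called member gene changed sign under any alternative. No paired analysis was possible because the reference has 1 array.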
